A study of Mus musculus with 6 samples.

Results

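Intergenic long noncoding RNA (lincRNA) genes are transcribed from promoters of their own, between the protein-coding genes, into capped RNAs that are not known to be translated. The 679 promoters described here belong to lincRNA genes of the GENCODE M21 annotation of mm10 and were selected on the measured tags: a gene was kept when at least 100 tags, summed over all libraries, started within 500 bp of its annotated 5′ ends on its own strand. Of 5849 lincRNA genes considered, 2610 had at least 1 tag and 679 reached that minimum, against 13561 of 21951 protein-coding genes. Malat1, Neat1, Pvt1, Meg3, Rian and Mirg were left out. The members just inside the minimum were Gm13838 and Gm37233 with 100 pooled tags each, followed by Mir17hg, and those just outside were 1700063H04Rik and Gm6634 with 99 each and 1700011C11Rik with 98.

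Capped RNA 5′ ends were counted by CAGE (cap analysis of gene expression) in nuclear RNA of 2 mouse cell lines. The first group held 3 libraries of R08, a male mouse embryonic stem cell (mESC) line kept without feeders in serum and LIF, and the second held 3 libraries of oli-neu, a mouse line that stands for oligodendrocyte progenitor cells (mOPCs) and was grown with bFGF, PDGF-BB and thyroid hormones. The labels name no other treatment and no genetic change, and each cell type was represented by a single line. Libraries held 16657021 to 40928704 tags in all. Tags within a window were scaled to a library of 1000000 tags (CPM). The libraries of a line shared a library label that differed from that of the other line, so that preparation and cell line cannot be told apart. Nothing in the labels says that replicates were separate cultures, and p-values measure only the spread between these libraries, which may be technical.

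Marker genes followed the labels with exceptions in oli-neu. Pou5f1, Nanog, Zfp42 and Dppa5a were at 0 tags in the mOPC libraries, and the summed level of the 7 mESC markers was 3588 to 3919 CPM in mESC libraries and 41.2 to 46.02 CPM in mOPC libraries. The 7 mOPC markers summed to 2292 to 2437 CPM in mOPC libraries and 8.82 to 10.1 CPM in mESC libraries, but Nkx2-2 was at 0 in mOPCs and Pdgfra reached only 8.33 CPM there against 5.51 CPM in mESCs. The 8 markers of astrocytes, neurons, microglia and fibroblasts summed to 22.3 to 29.1 CPM in mESC and 10.8 to 13.2 CPM in mOPC libraries. Cx3cr1 was at 0 in both lines. The fibroblast markers went in opposite directions. Thy1, which the paper lists as Cd90 among its mESC markers, gave 17.5 CPM in mESCs and 0.0197 CPM in mOPCs. Col1a1 gave 2.20 CPM in mESCs and 11.1 CPM in mOPCs.

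As background, lincRNA genes resemble coding genes in having RNA polymerase II promoters, caps and often introns, but they are known for lower levels and for expression in fewer cell types. Many start near a coding promoter and run in the opposite direction, and others stand alone. Some have known roles, such as hosting small nucleolar RNAs or microRNAs, silencing the X chromosome or marking pluripotent cells, whereas most carry only a provisional name. Of the 679 members, 381 had a Gm number, 205 a Rik name and 93 another name.

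Start sequences were available from RefSeq (GRCm38, the mm10 assembly) for part of the members, and the bases around the main start site are shown for the strongest promoters of mESCs that shared a sequence. Each run holds 70 bases before the main start site and 30 from it. Capitals mark the shared word TGCCAGTCANAAG and, at the main start site, the reported position and the base after it. In Gm5165 the main start site falls inside the second copy of the word.
Gm17768, chr7:43077989-43078088, plus strand: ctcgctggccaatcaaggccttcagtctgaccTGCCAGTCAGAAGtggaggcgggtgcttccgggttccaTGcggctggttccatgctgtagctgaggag
EU599041, chr7:43213963-43214062, plus strand: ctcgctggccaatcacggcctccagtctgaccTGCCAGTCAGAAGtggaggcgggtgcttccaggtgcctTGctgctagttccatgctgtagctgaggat
Gm20939, chr17:94864843-94864942, plus strand: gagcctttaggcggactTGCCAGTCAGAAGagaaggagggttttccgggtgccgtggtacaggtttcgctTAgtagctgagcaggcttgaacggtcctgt
Gm5165, chr17:17234794-17234893, plus strand: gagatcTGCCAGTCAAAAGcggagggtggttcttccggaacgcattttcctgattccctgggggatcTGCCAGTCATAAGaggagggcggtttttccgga

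Gm17768 and EU599041 were identical at 92 of the 100 bases, and at 27 of the 30 bases from the start, the part that a CAGE tag reads. The study's methods state bowtie and unique alignments, while the submitters' notes name BWA, and how tags of near-identical copies were treated in the deposited files is not settled. The levels of both genes are uncertain to that extent. The word was found after the sequences were seen, as the only 13-base word with 1 free base that at least 4 of the 6 available promoters of the 8 strongest mESC members shared. Over both strands it occurred in 7 of the 332 members with a RefSeq promoter (2.11%), in 58 of all 32851 promoters of the table (0.177%), in 14 of 10508 promoters of protein-coding genes with at least 100 tags (0.133%) and in 12 of 406 promoters of genes named Zfp and a number (2.96%), a naming series of zinc finger genes. These promoters span 300 bases, from 250 before to 50 after the RefSeq start.

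The 7 members with the word were Gm17768, EU599041, Gm20939, Gm5165, Gm6712, BC002059 and Gm32856. The first 4 are those in which the word was found, and their levels chose them, so that their rank says nothing about the word. Gm6712, with 3 copies like Gm5165, lay near it on chromosome 17 and gave 159, 147 and 143 CPM in mESC libraries against 14.9, 16.6 and 17.7 CPM in mOPC libraries. Gm32856 on chromosome 8 was the exception in its levels, with 46.1 ± 4.57 CPM in mESCs and 45.4 ± 1.73 CPM in mOPCs (SD, n = 3). By class the word was in 3 of 85 promoters of mESC-specific members, each of them among the 4 that defined it, in 0 of 69 of mOPC-specific members and in 4 of 178 of the others.

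For mOPCs, the start sequences of 3 of the strongest members and of Ino80dos, a promoter with a wide main cluster, are shown for contrast, with Halr1 of mESCs. Capitals mark a TATA motif where there was one, and again the main start position with the next base. As a TATA motif counted the word TATAA, its form with a final T (TATAT) and the variant TTTAA, which may overlap each other, on the strand of the gene and beginning 35 to 22 bases before the main start site.
2610035D17Rik, chr11:113201812-113201911, minus strand: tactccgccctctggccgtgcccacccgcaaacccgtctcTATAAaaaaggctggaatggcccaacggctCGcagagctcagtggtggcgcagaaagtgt
5031425E22Rik, chr5:23433297-23433396, minus strand: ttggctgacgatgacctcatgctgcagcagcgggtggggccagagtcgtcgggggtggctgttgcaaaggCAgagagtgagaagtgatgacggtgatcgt
Gm49317, chr9:41474784-41474883, plus strand: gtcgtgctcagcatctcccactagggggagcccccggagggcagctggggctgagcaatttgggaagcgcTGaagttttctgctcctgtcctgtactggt
Ino80dos, chr1:63114397-63114496, plus strand: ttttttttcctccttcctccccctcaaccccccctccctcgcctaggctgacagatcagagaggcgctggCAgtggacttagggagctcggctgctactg
Halr1, chr6:52102874-52102973, plus strand: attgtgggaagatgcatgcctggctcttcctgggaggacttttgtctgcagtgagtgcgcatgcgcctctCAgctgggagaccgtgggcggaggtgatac

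The tags of lincRNA promoters were concentrated on few genes, more so in mESCs than in mOPCs. In mESCs 1.06%, 1.08% and 1.07% of the tags of a library fell at members, and in mOPCs 1.04%, 1.06% and 1.03% did so. In bulk libraries, fewer cells that express a gene and less RNA per cell cannot be told apart. The lines did not overlap in this share, and the exact two-sided permutation p was 0.1, the smallest that 3 against 3 libraries allow. This difference of -0.029 percentage points depended on the window: it was -0.125 within 100 bp of the 5′ ends and -0.00083 within 1000 bp (exact permutation p = 0.9). Without Gm17768 and 5031425E22Rik, the strongest member of each line, the order turned: the share was 0.856% ± 0.0128 in mESCs and 0.978% ± 0.00993 in mOPCs (SD, n = 3, exact permutation p = 0.1). It also turned, to 0.073 percentage points more in mOPCs, when only tags near any annotated 5′ end made up the total. A single gene held 19.8% of the summed CPM of members in mESCs and 10 genes held 48.8%, whereas in mOPCs these shares were 6.21% and 29.3%. At least 10 CPM were reached by 128 members in mESCs and 192 in mOPCs, and at least 100 CPM by 17 and 20.

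Typical members were weak beside coding promoters. Pooled tags had a median of 577 over the members (quartiles 245.5 and 1932.5) and of 4967 over protein-coding genes under the same minimum. Windows of 50 members (7.36%) overlapped those of another gene on the same strand, 15 of them a coding gene, and such tags count for both. In some cases both genes were members, as with Gm45846 and Gm45847, which had the same main start site. Their common tags entered the shares above for each of them. Of the members described below, Snhg20, Snhg6, Snhg12, Mir124a-1hg, C130071C03Rik, Jpx, Miat, H19 and Gm27000 shared windows with genes of small or miscellaneous RNAs. Gm49317 did so with 3110039I08Rik. Replicates were close where levels allowed: among members with a mean of at least 1 CPM, the median coefficient of variation over 3 libraries was 10.2% in mESCs (465 members) and 9.66% in mOPCs (470 members).

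**Figure D1:**
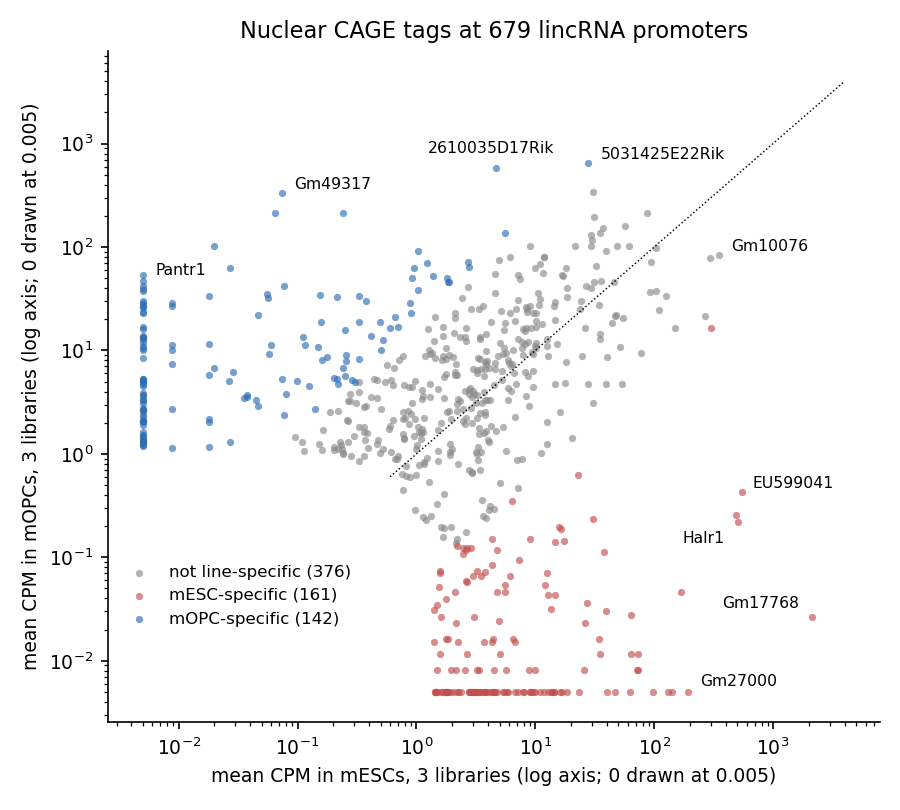
Mean CPM of each of the 679 lincRNA promoters in mESCs (x axis) and mOPCs (y axis), 3 libraries each, on log axes with values of 0 drawn at 0.005; the dotted line marks equal levels. Colours give the 161 mESC-specific, 142 mOPC-specific and 376 other members, and many specific members lie on the edges, where the other line had 0 tags.

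Gm17768 was the strongest lincRNA promoter of either line. It gave 2168, 2163 and 2035 CPM in the mESC libraries, 155664 tags in all, and 1, 1 and 0 tags in the mOPC libraries. The pooled ratio was 97799, with a 95% exact binomial interval of 27073 to 807564 that covers counting error only. Its main start site lay at position 43078059 of chromosome 7, 36170 bp from the nearest annotated 5′ end of Zfp936, a zinc finger gene that itself had 34.3 CPM in mESCs and 0.00814 CPM in mOPCs. EU599041, 26863 bp from another annotated 5′ end of Zfp936, followed with 545, 568 and 526 CPM in mESCs against 0.319, 0.451 and 0.513 CPM in mOPCs. Their tags spread over 36 and 23 bp (width, the span from the 10% to the 90% point of the tags of the main cluster).

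Halr1 and Lncenc1 came next in mESCs. Halr1 gave 431, 581 and 497 CPM in mESCs and 0.228, 0.208 and 0.220 CPM in mOPCs. Lncenc1, a transcript named for embryonic stem cells, gave 491, 500 and 461 CPM in mESCs and 0.182, 0.173 and 0.415 CPM in mOPCs, from a promoter only 3 bp wide. Enc1 had the nearest coding start, 241646 bp away.

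The other strong promoters of mESCs were less confined to that line. Gm10076 started almost wholly at 1 position, which held 89.9% of the tags of its main cluster, and gave 334, 378 and 340 CPM in mESCs against 91.3, 105 and 53.5 CPM in mOPCs. Gm20939 gave 293, 297 and 309.8 CPM against 14.8, 16.4 and 18.6 CPM, and Gm5165 gave 280.3, 266 and 262 CPM against 22.1, 21.4 and 21.04 CPM. Gm42743 gave 296 ± 14.6 CPM in mESCs and 77.8 ± 17.5 CPM in mOPCs (SD, n = 3), but its window was shared with the histone gene Hist2h2bb, 53 bp away on the same strand, and the tags of these genes cannot be told apart.

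In mOPCs, 5031425E22Rik led with 699, 706 and 536 CPM, against 25.3, 29.4 and 29.1 CPM in mESCs. Kmt2e, a gene of the lysine methyltransferase family, started 1115 bp away on the opposite strand, just beyond the 1000 bp used for head-to-head pairs, and moved the same way, from 107 CPM in mESCs to 1180 CPM in mOPCs. 2610035D17Rik gave 575, 557 and 625 CPM in mOPCs and 4.41, 4.68 and 4.83 CPM in mESCs. It was narrow, at 3 bp, with 62.5% of its main cluster on 1 position and the TATA motif 30 bases before it, and it stood alone, 363915 bp from the start of the zinc transporter gene Slc39a11.

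Gm38399 and Gm49317 were the next in mOPCs. Gm38399 gave 345, 331 and 351 CPM against 32.4, 28.5 and 31.2 CPM in mESCs. Gm49317 gave 308, 335 and 345 CPM in mOPCs from 30551 tags, and 6 tags in all mESC libraries together (ratio 4052, interval 1862 to 11043). 1700047M11Rik and 5330434G04Rik, with 213 ± 10.7 and 212 ± 10.3 CPM in mOPCs (SD, n = 3), likewise stayed at or under 0.326 CPM in every mESC library. Snhg20 and Lncpint completed the 8 strongest and were well expressed in both lines.

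**Figure D2:**
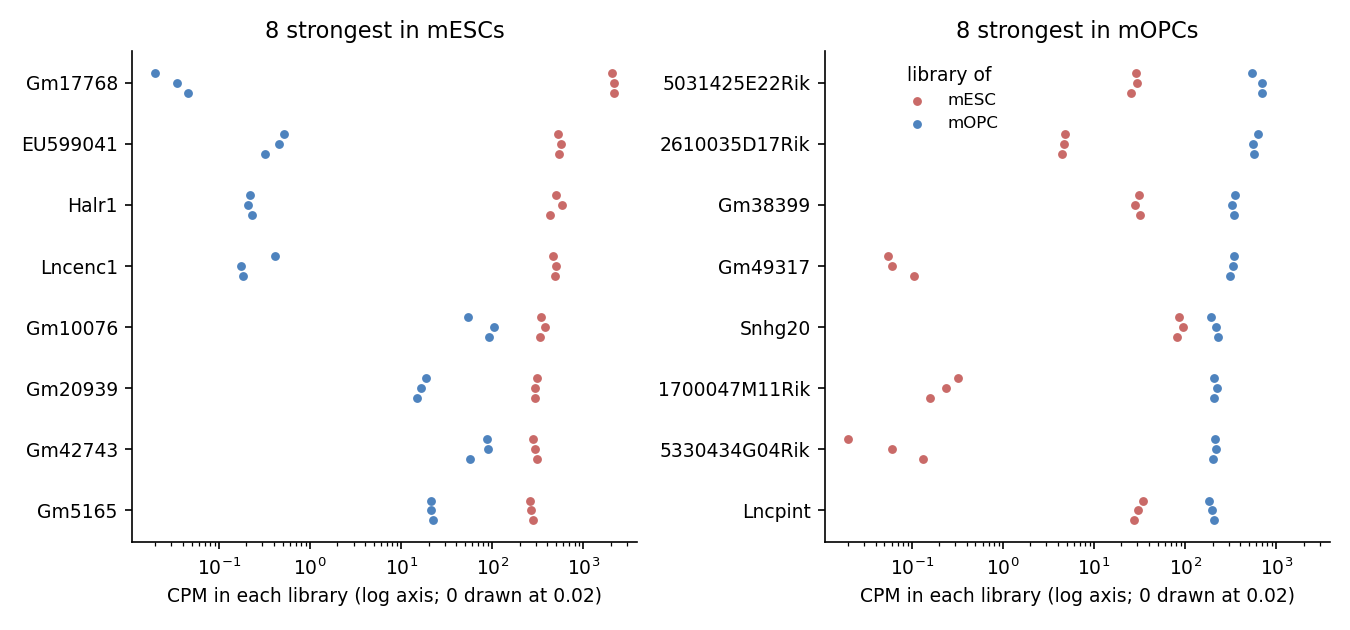
CPM in each library (x axis, log scale, 0 drawn at 0.02) of the 8 strongest lincRNA promoters of mESCs (left) and of mOPCs (right); each point is 1 library, 3 of mESCs and 3 of mOPCs. The 3 points of a line lie close together at high levels and farther apart where a line had few tags, as for 5330434G04Rik in mESCs. The distance between the lines runs from 2.45-fold for Snhg20 to 2 tags of Gm17768 in all mOPC libraries.

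Most lincRNA promoters differed between the lines. With edgeR's quasi-likelihood test, fitted on all 18490 genes tested and adjusted by Benjamini-Hochberg over them, 365 of the 679 members (53.8%) were higher in mOPCs and 265 (39.0%) higher in mESCs at an adjusted p under 0.05, leaving 49 without a call. Over all genes tested, 42.1% were higher in mOPCs and 48.9% in mESCs, and over protein-coding genes with at least 100 tags 42.9% and 48.0%. More members were thus called towards mOPCs than towards mESCs, the reverse of all genes, but these counts are a description. The pooled minimum admits members through 1 line alone. It was set on raw tags, of which the mOPC libraries held 91692553 and the mESC libraries 72972385, so that a lower CPM sufficed in mOPCs. The part of this in the counts was not tested. The absolute log2 fold change had a median of 3.40 over members and of 1.42 over protein-coding genes, and it was at least 4 for 304 members (44.8%) against 20.1% of protein-coding genes. Members lay nearer the minimum, with a median of 577 pooled tags against 4967, and the classes were not matched in level. The part of the minimum in the fold changes was not tested. By naming class, 122 of 205 Rik names, 199 of 381 Gm names and 44 of 93 other names were higher in mOPCs, beside 53.8% of all members. Higher in mESCs were 67, 154 and 44 of them, beside 39.0% of all members.

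Line-specific members were chosen by the contrast itself and are therefore described without a test: every library of a line had to lie above every library of the other, with a ratio of mean CPM of at least 16. By this rule 161 members (23.7%) were specific to mESCs and 142 (20.9%) to mOPCs, beside 13.8% and 8.27% of all 16889 genes with at least 100 tags and 13.1% and 7.04% of protein-coding genes. The pooled minimum bears on these shares too, since the classes differ in level, and its part in them was not tested. No tag at all was seen in mOPCs for 77 members and in mESCs for 58, where the ratio is a bound computed against 3 tags over the pooled libraries of the line.

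Of the 10 strongest mESC-specific members, 4 had no tag in mOPCs. Gm27000 on chromosome X, whose window also held the starts of a microRNA and a miscellaneous RNA gene, gave 203, 190 and 181 CPM in mESCs from a promoter of 1 bp and was at least 5941-fold higher than in mOPCs. The nearest coding start, that of the synaptic adhesion gene Il1rapl1 at 644674 bp, showed the reverse, with 0 tags in mESCs and 97.7 CPM in mOPCs. Platr4 gave 130, 135 and 157 CPM in mESCs (at least 4225-fold higher), 1700001L05Rik 126, 137 and 126 CPM (at least 3927-fold) and CT033772.2 99.7, 93.4 and 100.8 CPM (at least 3011-fold). Gm32885 gave 163, 176 and 164 CPM in mESCs with 4 tags in all mOPC libraries.

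The 10 strongest mOPC-specific members included the microRNA host Mir9-3hg and C130071C03Rik, whose window overlapped that of the microRNA gene Mir9-2. The RefSeq promoter at the start of Gm49317, given above, also carries the name of a microRNA host, Mir100hg. C130071C03Rik, 79565 bp from the start of Mef2c, a transcription factor gene of neurons and muscle, gave 85.7, 91.4 and 95.7 CPM in mOPCs against 1.19, 0.961 and 0.923 CPM in mESCs. Mir9-3hg, host of the neural microRNA miR-9, gave 69.7, 63.9 and 76.4 CPM against 1.32, 1.08 and 1.25 CPM. A830019P07Rik gave 104, 108 and 96.8 CPM, with 1 tag in mESCs (ratio 7457, interval 1338 to 294567). 5930430L01Rik, at 137 ± 11.6 CPM in mOPCs (SD, n = 3), shared its window with the coding gene Gm42791, so that its tags are not its own alone. Gm17399 rose from 2.72 to 71.7 CPM although its head-to-head partner Cmc1 stayed at 45.1 CPM in mESCs and 43.5 CPM in mOPCs.

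A few strong members were near the same level in both lines. Of the 30 strongest, 1810058I24Rik was closest, with 110, 105 and 96.2 CPM in mESCs and 93.1, 109 and 91.7 CPM in mOPCs (log2 fold change -0.11 ± 0.09 SE, adjusted p = 0.22 by edgeR). The ranges of its libraries overlapped. Gm31793 (log2 fold change -0.42) and Gm39469 (0.71) followed and were called in opposite directions.

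Lists of lincRNA genes with a known context were compared next. Of 21 pluripotency-associated genes, mostly the Platr series, 13 were members, and 12 of these were higher in mESCs, a call made for 39.0% of all members, and 1 in mOPCs. Platr11, for example, gave 63.0 ± 4.02 CPM in mESCs and Platr10 40.2 ± 1.19 CPM (SD, n = 3), both with 0 tags in mOPCs. Platr23 went the other way, from 1.13 ± 0.232 CPM in mESCs to 3.64 ± 0.300 CPM in mOPCs (log2 fold change 1.58 ± 0.21 SE, adjusted p = 4.38e-10 by edgeR). The 8 genes of the list that were not members had 0 to 60 pooled tags. The median log2 fold change of the 13 was -10.74, beside 0.62 over all members. These genes were listed for their link to pluripotent cells, and 12 of the 13 were mESC-specific by the rule above. Such members pass the minimum through mESC tags, so that their direction is a description.

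Hosts of small RNAs, matched by gene symbol alone, were 11 members of 13 genes. Of these, 8 were higher in mESCs and 3 in mOPCs, beside 39.0% and 53.8% of all members. The match left out other members at microRNA genes. Among those were C130071C03Rik and Gm49317 (Mir100hg in RefSeq), both higher in mOPCs, and H19, higher in mESCs. The counts thus hold for the listed symbols only. Snhg20, a host of small nucleolar RNA, gave 81.7, 94.3 and 86.7 CPM in mESCs and 230.2, 220.4 and 192 CPM in mOPCs (log2 fold change 1.27 ± 0.09 SE, adjusted p = 2.00e-20 by edgeR). Snhg6 had the opposite order, with 91.4 ± 5.46 CPM in mESCs and 36.4 ± 6.54 CPM in mOPCs, and Snhg12 fell from 16.2 to 2.52 CPM. Mir670hg rose from 4.61 ± 0.111 to 54.7 ± 3.51 CPM in mOPCs. Mir124a-1hg, a host of the neuronal microRNA miR-124, was at 9.49 ± 0.193 CPM in mESCs and at 0 tags in mOPCs.

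At the X inactivation centre, Ftx and Jpx, genes known as activators of Xist, were higher in mOPCs. Ftx gave 38.3, 36.2 and 36.0 CPM in mESCs and 150.2, 151 and 158 CPM in mOPCs (log2 fold change 2.03 ± 0.09 SE, adjusted p = 2.87e-29 by edgeR). Jpx gave 2.41 ± 0.705 CPM in mESCs and 32.2 ± 2.15 CPM in mOPCs (SD, n = 3). Xist itself, the RNA that coats the silenced X chromosome of female cells, was low in both, with 2.90, 3.06 and 2.61 CPM in mESCs and 0.0912, 0.104 and 0.171 CPM in mOPCs.

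All 3 neural and glial members, of 5 genes on that list, were higher in mOPCs, beside 53.8% of all members. They were mOPC-specific and passed the minimum through mOPC tags, so that this too is a description. The genes of the list below the minimum, Otx2os1 with 61 pooled tags and Rmst with 8, had tags in mESCs but 0 in mOPCs. Pantr1, named for its neighbour Pou3f3, a transcription factor gene of neural progenitors, had 0 tags in mESCs and 49.9, 47.9 and 43.1 CPM in mOPCs, at least 1124-fold more. Pou3f3, 942 bp away, rose from 1.22 to 89.2 CPM. Miat gave 0.328 ± 0.132 CPM in mESCs and 8.24 ± 0.951 CPM in mOPCs, and Lhx1os gave 0.0464 ± 0.0413 and 2.91 ± 0.0606 CPM (SD, n = 3). Of the 6 members on the list of broadly expressed genes, 3 were higher in mOPCs and 2 in mESCs, beside 53.8% and 39.0% of all members. One of them, the imprinted gene H19, was mESC-specific here, at 4.78 ± 1.04 CPM against 0.0465 ± 0.0225 CPM (SD, n = 3), which goes against the name of the list. Lncpint, a transcript induced by p53, gave 27.6, 30.5 and 34.9 CPM in mESCs and 207.9, 199.7 and 182 CPM in mOPCs, and Trp53cor1, another p53 target, rose from 9.90 to 62.0 CPM. 2900097C17Rik showed no call, at 9.42 ± 0.727 and 9.62 ± 1.26 CPM (log2 fold change -0.02 ± 0.13 SE, adjusted p = 0.906 by edgeR).

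The width of a lincRNA promoter, which the choice of members did not use, was close to that of a coding promoter. Over pooled tags the median was 46 bp for members (quartiles 31 and 66) and 47 bp for protein-coding genes (32 and 67). Very narrow promoters of 5 bp or less were 39 of the members (5.74%) and 3.80% of protein-coding genes, and promoters over 100 bp were 44 (6.48%) and 11.6%. Thinned to 100 tags each, both classes had a median of 47 bp, for 595 and 13111 genes whose main cluster held enough tags.

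Within libraries, the median width over members with at least 100 tags was 46, 45 and 46 bp in mESCs and 51, 51 and 50 bp in mOPCs (exact permutation p = 0.1, the smallest possible). Different members reached 100 tags in the 2 lines. Over the 108 members that did so in all 6 libraries, the medians were 51.5, 46.5 and 50 bp in mESCs and 51, 47.5 and 52.5 bp in mOPCs, and the ranges overlapped (exact permutation p = 0.6). Against protein-coding genes in the same library, members were 1.67 bp wider on average (exact sign-flip permutation over 6 libraries, p = 0.25), and 3.83 bp wider over the 108 members (exact sign-flip permutation p = 0.031, the smallest possible), a comparison added after the data were seen. With the span from 25% to 75% of the tags as the width, the mean difference was -0.083 bp.

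**Figure D3:**
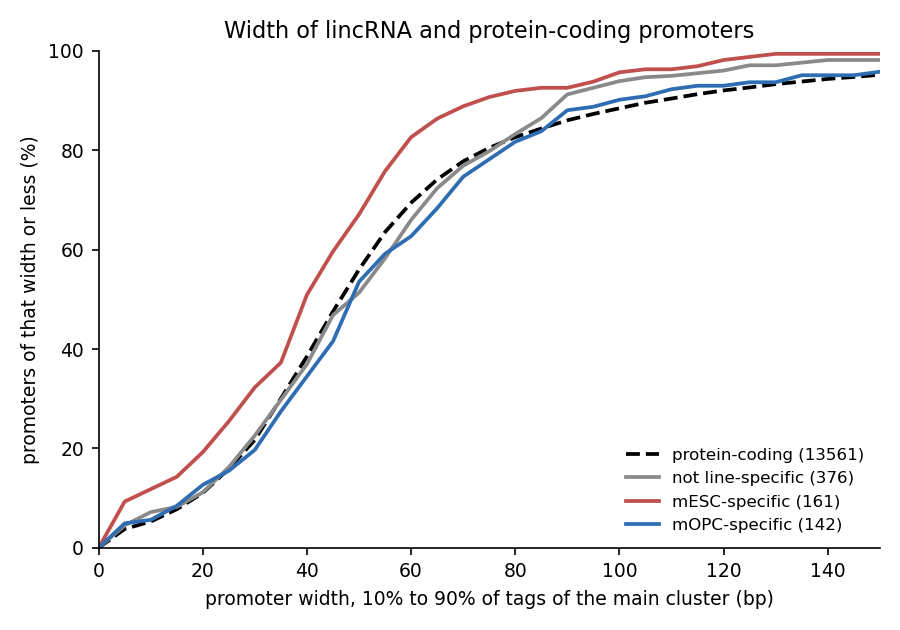
Cumulative share (y axis, %) of promoters up to a given width (x axis, bp) for the 3 classes of lincRNA promoters and for protein-coding promoters with at least 100 pooled tags (dashed). The curve of mESC-specific members, with a median of 40 bp, lies left of those of mOPC-specific and other members, both with a median of 49 bp. Among protein-coding genes, drawn here without classes, mESC-specific ones were also narrowest, with a median of 44 bp. It was 54 bp for mOPC-specific and 47 bp for other protein-coding genes.

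The narrowest members with at least 1000 pooled tags were Gm10076, Gm27000 and 2610037D02Rik, all 1 bp wide. Single positions held 95.2% of the main cluster of Gm27000 and 91.6% of that of 2610037D02Rik, which gave 53.0, 46.7 and 49.9 CPM in mOPCs against 0.924, 1.02 and 0.814 CPM in mESCs. At the other end, E130102H24Rik spread over 388 bp, 4632428C04Rik, 55632 bp from Hes1, over 335 bp, and Ino80dos over 320 bp. No position of these held more than 8.15% of the tags. Narrow and wide promoters thus both occurred among strong members, such as 2610035D17Rik and Ino80dos, whose start sequences are given above.

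A TATA motif was seen at about the same share of lincRNA and coding promoters. Of the 201 members for which RefSeq holds the bases around the main start site, 13 had one (6.47%), against 384 of 6286 protein-coding genes (6.11%). They were 6 of 43 mOPC-specific members, among them 2610035D17Rik and Gm26519, and 2 of 54 mESC-specific members, Platr26 and 4933427D06Rik. By class the protein-coding shares were 9.83% for mOPC-specific and 12.9% for mESC-specific genes. Lncpint had a motif and a width of 152 bp, so that a motif was not tied to a narrow promoter in that gene. At the main start, a pyrimidine at the reported position followed by a purine was seen in 170 of the 201 members (84.6%) and in 88.7% of protein-coding genes, whereas the base before and the reported position gave 1.49% and 1.16%. The positions in the deposited data therefore lie 1 base upstream of the pyrimidine-purine step as it is usually described, and coordinates are given here as deposited.

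CpG dinucleotides were sparser at members than at coding promoters, by the medians. Over the 240 members with a RefSeq promoter within 100 bp of their main start, the median ratio of observed to expected CpG was 0.551 and the median GC content 55.5%, against 0.794 and 62% for 8643 protein-coding genes. For mESC-specific members the CpG ratio was 0.349 (63 promoters) and for mOPC-specific members 0.355 (48 promoters), while line-specific protein-coding genes had 0.599 and 0.583. Gm17768 and EU599041 were lower still, at 0.241 and 0.179, and 5031425E22Rik, which shares its surroundings with Kmt2e, was at 0.932.

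Main start sites lay farther from annotated ones than in coding genes. They were within 10 bp of an annotated 5′ end in 33.1% of members and 50.6% of protein-coding genes, and within 50 bp in 68.3% and 84.1%. Among 315 members with at least 50 tags in each line, 34 (10.8%) used another main cluster in mOPCs than in mESCs, beside 7.97% of 11060 protein-coding genes. Lncpint, chosen after its values were seen as the strongest of these, started mainly at position 31218480 of chromosome 6 in mOPCs and 2101 bp away, at 31216379, in mESCs, where 41.0% of its 2197 tags lay in that cluster. Mir670hg used starts 85805 bp apart, which held 88.8% of its tags in mESCs and 78.3% in mOPCs.

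The classes of members differed in their counts of coding neighbours. A coding promoter on the opposite strand lay head to head within 1000 bp for 202 members (29.7%) and for 15.1% of protein-coding genes, with a median distance of 156 bp. By class these were 171 of the 376 members that were not line-specific (45.5%), but 13 of 161 mESC-specific (8.07%) and 18 of 142 mOPC-specific members (12.7%). Among protein-coding genes the same shares were 17.9%, 3.61% and 4.19%. The nearest coding start was at a median of 1101 bp from the other members, 27782 bp from mESC-specific and 41697 bp from mOPC-specific ones. For protein-coding genes these medians were 14909.5, 20401 and 42108 bp. Of all members, 92 (13.5%) had none within 100 kb.

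**Figure D4:**
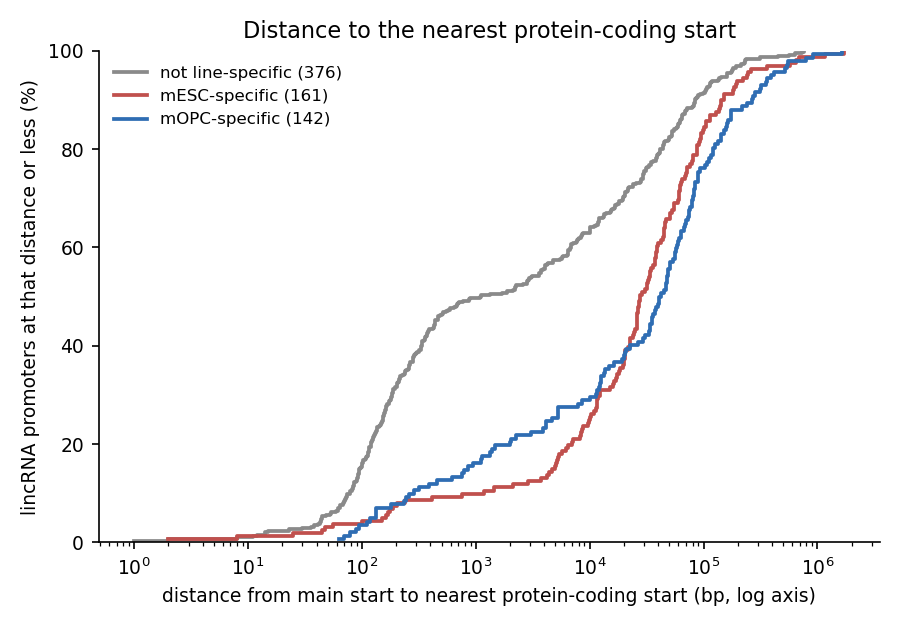
Cumulative share (y axis, %) of lincRNA promoters up to a given distance (x axis, bp, log scale) from the nearest protein-coding start, for the 3 classes. The curve of the 376 members that are not line-specific rises early, with 45.5% head to head within 1000 bp, while those of the 161 mESC-specific and 142 mOPC-specific members rise mainly beyond 10 kb.

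Of the 5 strongest head-to-head members, Gm17399 is given above, and the others also differed from their partners in size or direction of change. Gm15834, 38 bp from Orc2, a gene of the origin recognition complex, gave 30.5, 37.2 and 37.5 CPM in mESCs and 135, 147 and 131 CPM in mOPCs, while Orc2, at 254 CPM in mESCs, fell by 1.36 on the log2 scale. Ino80dos, 133 bp from the chromatin remodelling gene Ino80d, rose from 29.2 ± 1.46 to 131 ± 4.86 CPM with Ino80d at 40.4 and 51.7 CPM. 4632404H12Rik rose from 10.9 to 68.7 CPM beside Ube2q1 at 15.8 and 21.6 CPM, and 4930558J18Rik was lower in mOPCs, 76.9 against 9.49 CPM, beside 1700066M21Rik at 27.4 and 34.3 CPM. Other pairs, chosen after their values were seen, moved together: 4930570G19Rik went from 0.0181 to 33.4 CPM and Negr1, a neuronal growth regulator 95 bp away, from 0.109 to 160 CPM, and Platr20 with its partner Gm12569 fell from 73.6 and 11.5 CPM to 0.00814 and 0 CPM.

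Across pairs the log2 fold changes of a member and its coding neighbour are given as a description, since both come from the same libraries. Windows shared with another gene were left out. In 116 of 186 head-to-head pairs (62.4%) both had the same sign, with Pearson's r = 0.77 and Spearman's rho = 0.50 across pairs. The discordant pairs were mainly of 1 kind, with the lincRNA higher in mOPCs and the coding gene higher in mESCs in 55 pairs, against 15 of the reverse. Among line-specific members the sign was shared in 15 of 17 mOPC-specific and 9 of 11 mESC-specific pairs. Over all 486 members with a coding start within 100 kb it was shared in 304 (62.6%, r = 0.45). For members not head to head it was shared in 67 of 97 with the nearest coding start up to 10 kb away (69.1%, r = 0.52), in 81 of 138 at 10 to 50 kb (58.7%, r = 0.35), in 40 of 65 at 50 to 100 kb (61.5%, r = 0.23) and in 33 of 64 beyond 100 kb (51.6%, r = 0.02).

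**Figure D5:**
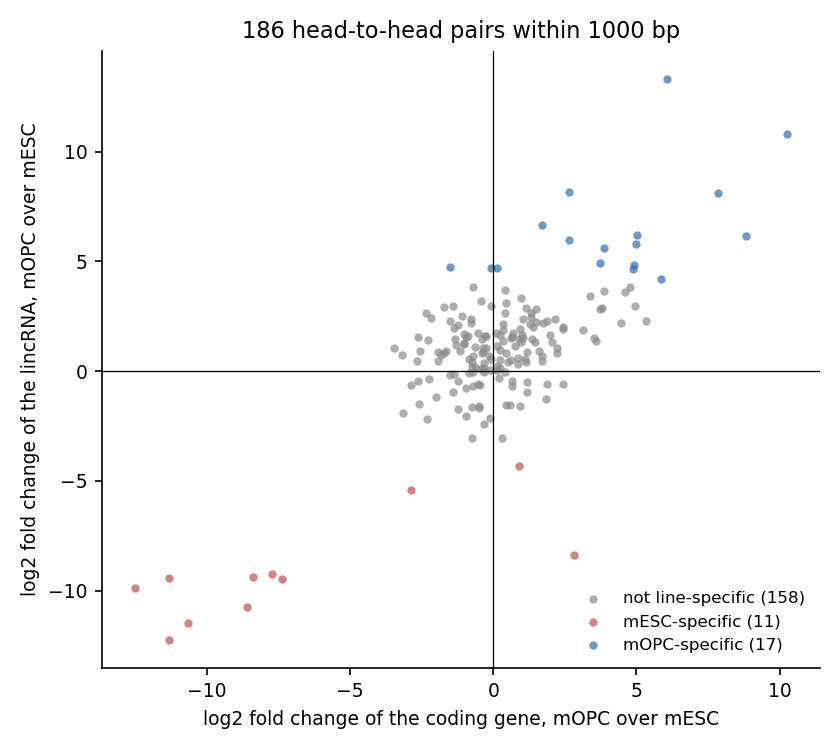
Log2 fold change, mOPC over mESC, of the lincRNA (y axis) against that of the coding gene head to head within 1000 bp (x axis) for 186 pairs without shared windows; each point is 1 pair, coloured by class of the lincRNA. The signs match in 116 pairs (62.4%), and the line-specific members lie mostly in the lower left and upper right corners.

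Along chromosome 5, on which 5031425E22Rik and Kmt2e lie, 14 members fell between 5 and 35 Mb, a stretch chosen with earlier results of these data known. Of these, 10 were higher in mOPCs (71.4%) and 4 in mESCs, beside 355 of the other 665 members (53.4%) and 42.1% of all genes tested higher in mOPCs. Over the 14 members of the stretch the median was 1.28 on the log2 scale, against 0.58 over those 665. Without all members on chromosome 5, 328 members were higher in mOPCs. The part of this stretch in the level of 5031425E22Rik was not tested.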

How the data were processed

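Nuclear RNA of R08 mESCs (3 libraries) and oli-neu mOPCs (3 libraries) was profiled by CAGE. According to the study's methods, the authors mapped tags uniquely to the mm10 genome. They name bowtie, whereas the submitters' processing notes name CASAVA 1.8 and BWA 0.5.9. The deposited values are raw counts of tags by position and strand. Genes, transcript 5′ ends and gene types came from GENCODE M21 (GRCm38). Tags within 500 bp of any annotated 5′ end were summed per gene, once each. In each window, positions with at least 2 pooled tags were joined up to 20 bp, and the cluster with the most tags gave the main start site (its strongest position) and the width from 10% to 90% of its tags. Genes were tested on counts with edgeR 4.0.16 (R 4.3.3, filterByExpr, TMM, robust quasi-likelihood fit), with DESeq2 1.42.0 as an alternative. Tested on simulated data for 18490 genes, of which 200 were changed by a log2 fold change of 2, the fit called 218 genes, with 200 true and 18 false. Changes were planted in few genes, all with enough tags. The simulation therefore does not cover data in which most genes differ, or genes without tags in a line. Other steps used Python 3.11.15, numpy 2.4.6, pandas 2.3.3, scipy 1.17.1 and matplotlib 3.10.9.

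Members and lists were chosen with earlier results of these data known. Of the 6 left-out names, Rian has another gene type in this release. Named genes are the 8 strongest and the 10 strongest line-specific members of each line, list members, those next to the 100-tag minimum, the 5 strongest head-to-head members, the 3 narrowest and 3 widest with at least 1000 tags and the 3 most equal of the 30 strongest; others are said to be chosen after their values were seen. Without molecular identifiers, intervals and bounds from 3 tags account for counting error alone. Alternatives were other windows, minimum counts, folds, scalings, filters and cluster settings, the replicate number as a block, and leaving out single libraries.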

Additional observations from a re-analysis of the deposited data

How the results depend on the processing

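The counts of members, of calls in each direction, of line-specific members, of head-to-head members and of TATA motifs stayed within 1.5 times of the reported values under every alternative run. The share of tags at lincRNA promoters, mOPC minus mESC, was -0.029 percentage points and became 0.073 with tags near any annotated 5′ end as the denominator (exact permutation p = 0.1 both times); the cause was not tested. It was -0.125 within 100 bp and -0.00083 within 1000 bp of the 5′ ends, and leaving out the strongest member of each line also turned it. The median width of 46 bp depended on its definition: it was 60 bp from 5% to 95% of the tags, 24 bp from 25% to 75%, 47 bp thinned to 100 tags, 55 bp with positions joined up to 50 bp, 54 bp with all positions counted, 50.5 bp over members with at least 100 tags in all libraries, and 44 to 45 bp with each library left out. The difference in width from protein-coding promoters, 1.67 bp, was -0.083 bp from 25% to 75% of the tags, 4.58 bp with positions joined up to 50 bp and 3.83 bp over promoters with at least 100 tags in all libraries, the latter values each with an exact sign-flip permutation p = 0.031. With the replicate block, 363 members were higher in mOPCs and 262 in mESCs. Correlations of deviations across genes were 0.019, 0.0996 and 0.022 for libraries of the same number and -0.123 to 0.094 for the others. So few values do not settle whether the numbers pair the libraries. Members in soft-masked repeat sequence were not counted, because no soft-masked genome was used here. Depth limits members near 100 tags, which rest on few tags per library.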
